A study of Mus musculus with 12 samples.

Results

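Type I interferon response genes, a list of 31 genes that cells switch on after interferon alpha or beta, were measured in mouse breast tumours in which the host's blood vessels could be made to express endorepellin. The 31 were matched by gene symbol in a table of 25116 genes from bulk RNA sequencing, each matched 1 row, and all 31 were abundant enough to be tested. The tumours grew from E0771 cells, a line of mouse triple-negative breast cancer, placed in the mammary fat pads of C57BL/6J hosts of the same strain, and were collected at day 22. All hosts carried Tie2CreER, a tamoxifen-activated recombinase under the endothelial Tie2 promoter, and ERKi, the inducible endorepellin knock-in gene. Hosts of the 7 induced tumours were given tamoxifen before the tumour cells, and hosts of the 5 control tumours were given a control injection. Tamoxifen itself and the knock-in gene therefore cannot be told apart, and the labels do not state the age of the mice. Endorepellin, the C-terminal fragment of perlecan, is known to act on endothelial receptors and to restrain vessel growth. The Tie2 promoter is also known to be active in some blood cells. Nothing in the labels says whether tumours of 1 group came from separate mice, so p-values measure the spread between these samples.

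Type I interferons are secreted when sensors in the cytoplasm or endosome detect foreign or misplaced nucleic acid. They bind the receptor pair IFNAR1 and IFNAR2, whose kinases JAK1 and TYK2 phosphorylate STAT2. A complex that holds STAT2 and IRF9 then binds the interferon-stimulated response element in the promoters of target genes. In tumours the response can come from cancer cells, leukocytes, fibroblasts and vessels alike, and interferon gamma from lymphocytes induces many of the same genes.

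Total counts were 18993192 to 28372821 per library. Hspg2, the perlecan gene, averaged 535 CPM (counts per 1000000 counts, after scaling by TMM factors) in induced and 549 CPM in control tumours, and the sources used here do not say whether knock-in transcripts count towards it. Markers of mammary epithelium were near 0, with sums over 6 genes (Krt8, Krt18, Epcam, Cdh1, Krt5 and Krt14) of 2.10 to 4.88 CPM over the induced tumours and 1.71 to 7.03 CPM over the control tumours. Markers of 5 endothelial genes summed to 80.4 to 115 CPM over the induced tumours and 77.2 to 123 CPM over the control tumours. Induced 3, induced 4, control 1 and control 2 stood apart: these 4 lay all above the other 8 in 12% of the 15199 genes tested and all below them in 15.1%. Control 1 also held the highest sum of all tumours for every marker list but neutrophils and skeletal muscle. For B cells control 4 was close, at 39.0 against 39.6 CPM. Fold changes without control 1 are given beside each group of genes.

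The interferon response genes were read well above the detection limit in every tumour. The smallest count of any of them in any library was 413, for Mx2. Per kilobase of exonic length, Bst2 was at 787 ± 241 CPM, Isg15 at 309 ± 46.2 CPM and Ifi27l2a at 222 ± 50.5 CPM over all tumours (mean ± SD, n = 12). On the same per-length scale 13 of the 31 were above percentile 90 of the 15170 tested genes with an annotated length, and the median of the 31 was at percentile 88.5. The lowest was Mx2 at 7.53 ± 1.08 CPM per kilobase, at percentile 60.4, followed by Ifih1 at 12.6 ± 3.94 and Irf9 at 14.7 ± 1.15 CPM per kilobase, whose spreads overlap. The plot of levels per kilobase shows that the induced and control means lay close together at every level.

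**Figure D1:**
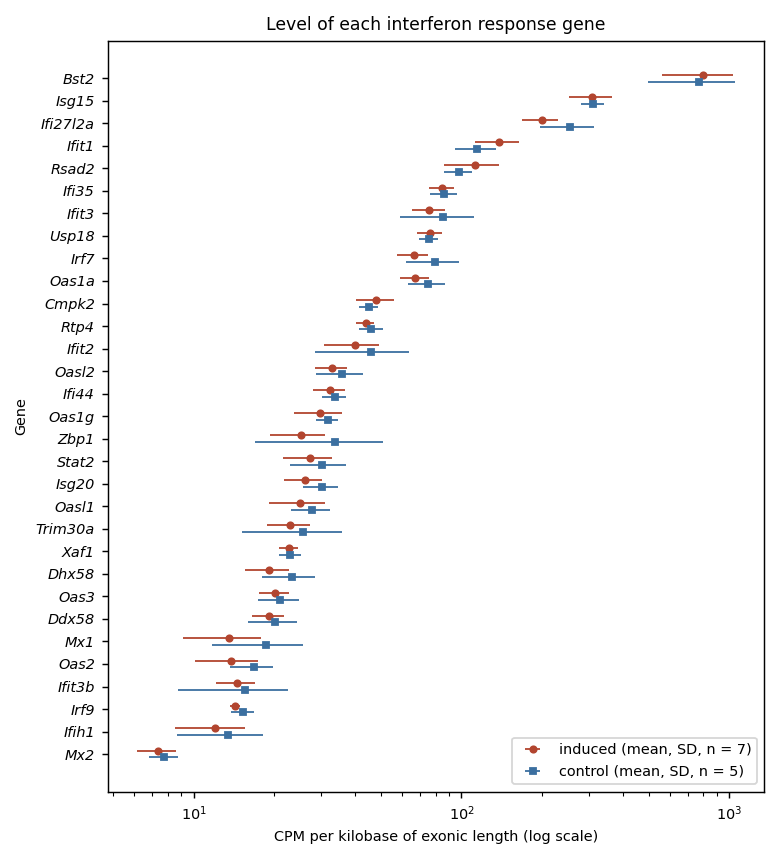
Level of each interferon response gene per kilobase of exonic length, on a log axis, with genes ordered by their mean over 12 tumours; circles are the mean of 7 induced and squares the mean of 5 control tumours, and bars are SD. The genes span Bst2 at 787 to Mx2 at 7.53 CPM per kilobase, and the SD bars of the groups overlap for every gene.

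Many of the promoters carried the core letters of the response element. In the RefSeq promoter table (GRCm38.p6, 250 bases before to 50 after each annotated start), 23 of the 31 genes had an entry. The letters GAAA, any 2 bases and GAAA again, read on both strands and allowed to overlap, were found in 13 of those 23 (56.5%), against 1079 of 27025 genes in the whole table (3.99%). The other motif looked for, TTC, any 3 bases and GAA, was found in 5 of the 23 (21.7%), against 2582 of 27025 genes (9.55%). A match is a description of the letters and not a binding site. The stretches shown are the 200 bases before the start of genes chosen after values were seen, each with a match to the GAAA motif. They run 5′ to 3′ in the direction of the gene, with matches to the GAAA motif on either strand in capitals. Isg15, Ifit1 and Rsad2 were highest in induced 2, Bst2 was lowest in the 4 tumours that stood apart, and the pairs Ifit3 with Ifit3b and Oas1a with Oas1g are near copies that can exchange reads. Cmpk2, also highest in induced 2, had an entry without a match to the GAAA motif. So had Ifit2 and Ifi35, which were highest and lowest in the 4 tumours that stood apart.
Isg15 (chr4:156200819-156201018, minus strand): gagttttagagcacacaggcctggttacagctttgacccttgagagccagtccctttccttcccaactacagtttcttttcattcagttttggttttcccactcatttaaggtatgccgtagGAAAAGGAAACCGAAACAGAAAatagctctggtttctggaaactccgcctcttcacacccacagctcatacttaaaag
Ifit1 (chr19:34640689-34640888, plus strand): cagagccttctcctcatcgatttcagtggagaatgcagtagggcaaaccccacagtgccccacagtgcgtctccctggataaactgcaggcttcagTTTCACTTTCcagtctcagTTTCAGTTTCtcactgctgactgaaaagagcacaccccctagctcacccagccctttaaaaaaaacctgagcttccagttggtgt
Rsad2 (chr12:26456453-26456652, minus strand): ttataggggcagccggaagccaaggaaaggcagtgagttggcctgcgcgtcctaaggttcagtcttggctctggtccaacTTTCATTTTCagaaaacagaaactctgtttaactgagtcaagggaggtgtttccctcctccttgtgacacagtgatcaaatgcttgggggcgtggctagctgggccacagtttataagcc
Bst2 (chr8:71537473-71537672, minus strand): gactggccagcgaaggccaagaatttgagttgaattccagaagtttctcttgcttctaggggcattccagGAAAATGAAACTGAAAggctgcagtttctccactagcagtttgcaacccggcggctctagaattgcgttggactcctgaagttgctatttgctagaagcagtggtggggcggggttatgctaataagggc
Ifit3 (chr19:34583329-34583528, plus strand): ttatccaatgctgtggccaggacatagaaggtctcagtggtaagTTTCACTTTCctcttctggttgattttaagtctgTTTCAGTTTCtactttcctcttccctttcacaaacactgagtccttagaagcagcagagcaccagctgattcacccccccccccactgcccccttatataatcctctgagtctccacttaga
Ifit3b (chr19:34607757-34607956, plus strand): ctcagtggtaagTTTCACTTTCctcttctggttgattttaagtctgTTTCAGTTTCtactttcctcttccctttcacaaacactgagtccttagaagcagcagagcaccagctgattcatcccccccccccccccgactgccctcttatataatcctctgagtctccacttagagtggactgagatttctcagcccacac
Oas1a (chr5:120907526-120907725, minus strand): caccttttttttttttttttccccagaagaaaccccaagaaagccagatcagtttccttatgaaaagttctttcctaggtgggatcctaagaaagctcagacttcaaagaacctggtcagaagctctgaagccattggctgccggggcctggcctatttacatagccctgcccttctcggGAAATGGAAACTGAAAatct
Oas1g (chr5:120887614-120887813, minus strand): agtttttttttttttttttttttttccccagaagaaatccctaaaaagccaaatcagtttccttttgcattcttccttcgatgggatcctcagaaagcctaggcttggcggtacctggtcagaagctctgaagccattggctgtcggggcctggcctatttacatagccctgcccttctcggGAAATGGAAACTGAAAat
For the GAAA motif, Isg15 held 3 overlapping matches whose first bases lay from -78 to -66 relative to the start, and Bst2 held 2 from -130 to -124. Ifit3 and Ifit3b each held 2 matches to the GAAA motif 34 bases apart, and Oas1a and Oas1g each held 2 that were 6 bases apart. Usp18, Mx1, Mx2, Zbp1, Dhx58, Oas2, Rtp4 and Ifi27l2a had no entry in the table.

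Between induced and control tumours, no interferon response gene passed the test, and the fitted differences were small. The median log2 fold change of the 31 genes was -0.10, against -0.00086 over all genes tested. The fitted value was lower in induced tumours for 26 of 31 (83.9%), where it was lower for 50.2% of all genes tested. The 31 directions are not independent of each other, since the genes belong to 1 response and some share reads. Between single tumours of a group, the SD of the median deviation over the 31 genes was 0.17 on the log2 scale. The largest differences were those of Mx1, at -0.46, and Ifit1, at 0.27. In bulk tissue a lower value from fewer cells of a type and from less RNA per cell cannot be told apart. By edgeR's quasi-likelihood test with Benjamini-Hochberg adjustment 0 of 31 were called at an adjusted p under 0.05, where 0% of all genes were called, and each adjusted p was 1.00. An unadjusted p under 0.05 was reached by 1 of 31, Ifi27l2a (2.13% of all genes), by 1 with DESeq2 (2.44% of all genes) and by 4 with limma-voom (6.55% of all genes), both of which called 0. No gene of the 31 had induced values that did not overlap the control values, as 0.0592% of all genes did.

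Under this edgeR fit, which has no term for the 4 tumours that stood apart, the intervals bound how large a difference these tumours could hide. Over all genes tested, unadjusted p-values under 0.05 were rarer, at 2.13% by edgeR, than evenly spread p-values would give. The 95% interval of the fold change, taken gene by gene, lay within a 2-fold change in either direction for 31 of 31 genes, and for 77.2% of all genes tested. Its extremes were a fold of 0.503 for Mx1 and 1.52 for Bst2. For 22 of 31 it lay within a 1.5-fold change. Both limits were chosen after the values were seen, and with 1 tumour left out the 2-fold count ran from 29 to 31. These descriptions moved with control 1: without it the median log2 fold change was -0.01 and 20 of 31 were lower, and without the 4 tumours that stood apart it was -0.02 and 19 of 31 were lower.

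**Figure D2:**
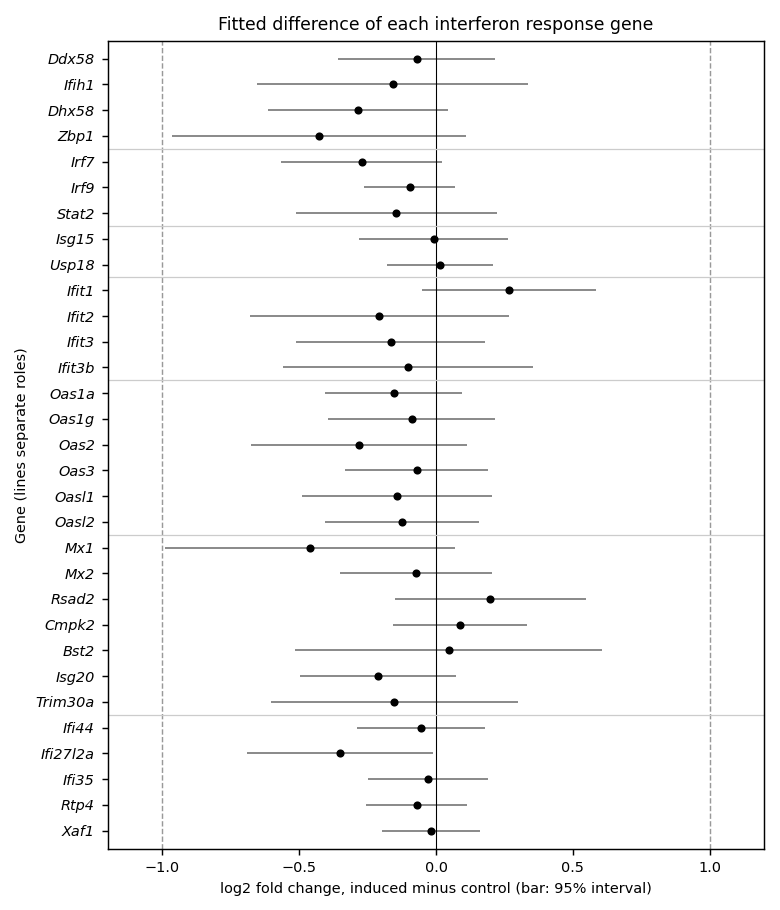
Log2 fold change, induced minus control, of each interferon response gene from edgeR (points) with its 95% interval (bars); the dashed lines mark a 2-fold change. All 31 bars stay between the dashed lines, and 30 of them cross 0, the exception being that of Ifi27l2a.

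Among the sensors of nucleic acid, all 4 had fitted fold changes below 0 and none passed the test. Zbp1, which binds left-handed double-stranded nucleic acid and can trigger cell death, was at 57.0 to 115 CPM with a median of 85.7 CPM in the induced tumours, against 226, 86.6, 101, 83.6 and 101 CPM in control 1 to control 5. Control 1 stood far above every other tumour and the remaining control tumours lay inside the induced range. Its log2 fold change was -0.43 (SE 0.25, 95% interval -0.96 to 0.11), and without control 1 it was -0.07. Dhx58, the regulatory helicase LGP2, was at 52.2 to 85.7 CPM with a median of 59.5 CPM in the induced tumours, against 102, 82.9, 63.0, 61.2 and 71.1 CPM in control 1 to control 5. Control 1 was again the highest, the groups overlapped, and the log2 fold change was -0.28 (SE 0.15, 95% interval -0.61 to 0.04), or -0.16 without control 1. Ddx58, the helicase RIG-I that detects uncapped RNA, averaged 135 ± 18.2 CPM in induced and 142 ± 29.8 CPM in control tumours (SD, n = 7 and n = 5; log2 fold change -0.07, SE 0.13). Ifih1, the helicase MDA5 that detects long double-stranded RNA, averaged 98.3 ± 28.9 CPM in induced and 109.6 ± 38.7 CPM in control tumours (log2 fold change -0.16, SE 0.23). Without control 1 the fold changes of Ddx58 and Ifih1 were above 0, at 0.04 and 0.01.

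The transcription factors of the response had fitted fold changes from -0.27 to -0.10. Irf7, which is itself interferon-induced and drives further interferon production, was at 202 to 304 CPM with a median of 244 CPM in the induced tumours, against 403, 231, 262, 282 and 331 CPM in control 1 to control 5. The 2 highest values were control 1 and control 5, while control 2 lay below the induced median. Its log2 fold change was -0.27 (SE 0.14, 95% interval -0.57 to 0.02), or -0.15 without control 1. Stat2, which carries the activation domain of the complex, averaged 161 ± 33.6 CPM in induced and 178 ± 42.2 CPM in control tumours (SD, n = 7 and n = 5; log2 fold change -0.14, SE 0.17). Irf9, its DNA-binding partner, varied least within this role, at 77.0 ± 3.45 CPM in induced and 82.4 ± 8.21 CPM in control tumours (log2 fold change -0.10, SE 0.08). Without control 1, Stat2 was at -0.03 and Irf9 at -0.05 on the log2 scale.

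The ISG15 system showed almost no difference. Isg15, a ubiquitin-like protein that is attached to other proteins, was at 173 to 310.4 CPM with a median of 227 CPM in the induced tumours, against 238, 213, 274, 217 and 230.2 CPM in control 1 to control 5. Both the highest and the lowest tumour, induced 2 and induced 3, were induced, and the control values lay between them. The log2 fold change was -0.0082 (SE 0.13, 95% interval -0.28 to 0.26). Usp18, the protease that removes ISG15 and also dampens the interferon receptor, was at 194 to 261 CPM with a median of 206 CPM in the induced tumours, against 205, 192, 236, 218 and 205 CPM in control 1 to control 5. Its log2 fold change was 0.01 (SE 0.09, 95% interval -0.18 to 0.21), and the sign of both genes changed when single tumours were left out. Without control 1, Isg15 was at -0.01 and Usp18 at -0.0041.

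The 4 IFIT genes lie together on chromosome 19 (GRCm38) and encode proteins that bind foreign RNA or block its translation. Ifit1, which recognises RNA caps that lack methylation, was at 273 to 471 CPM with a median of 381 CPM in the induced tumours, against 283, 342, 378, 248 and 274 CPM in control 1 to control 5. The values of induced 1 to induced 4 lay above each control value, while those of induced 5, induced 6 and induced 7 lay among the control values. Its log2 fold change of 0.27 (SE 0.15, 95% interval -0.05 to 0.58) was the highest of the 31, and stayed between 0.19 and 0.34 with any 1 tumour left out. Ifit2, which binds AU-rich RNA, averaged 157 ± 36.3 CPM in induced and 181 ± 70.0 CPM in control tumours (SD, n = 7 and n = 5; log2 fold change -0.21, SE 0.22), with its highest value in control 1, where Ifit1 was among its lower values. Ifit3 averaged 132 ± 18.7 CPM in induced and 148 ± 45.2 CPM in control tumours (log2 fold change -0.17, SE 0.16). Ifit3b averaged 29.1 ± 4.80 CPM in induced and 31.2 ± 13.8 CPM in control tumours (log2 fold change -0.10, SE 0.21). The signs of these 3 neighbours depended on control 1, without which the log2 fold changes were 0.03 for Ifit2, 0.04 for Ifit3 and 0.21 for Ifit3b. Of the 50-base stretches in Ifit3 transcripts, 51.2% also occur in Ifit3b, and reads of this pair are uncertain. Ifit1 spans chr19:34640871-34650009 (plus strand), Ifit2 chr19:34550694-34576419 (plus strand), Ifit3 chr19:34583531-34588731 (plus strand) and Ifit3b chr19:34607970-34613401 (plus strand).

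All 6 OAS and OASL genes had fitted fold changes below 0, from -0.28 to -0.07. Active OAS enzymes make the second messenger that activates RNase L. Oas1a was at 103 to 145 CPM with a median of 133 CPM in the induced tumours, against 172, 113, 134, 132 and 153 CPM in control 1 to control 5, and the groups overlapped over most of their range. Its log2 fold change was -0.16 (SE 0.12, 95% interval -0.41 to 0.10). Oas2 was at 44.1 to 84.4 CPM with a median of 66.9 CPM in the induced tumours, against 92.8, 58.8, 79.0, 77.6 and 64.1 CPM in control 1 to control 5. Induced 3, induced 5 and induced 7 were the 3 lowest tumours, the other induced tumours lay inside the control range, and the log2 fold change was -0.28 (SE 0.18, 95% interval -0.68 to 0.11). Oas1g averaged 69.6 ± 14.1 CPM in induced and 74.1 ± 7.08 CPM in control tumours (SD, n = 7 and n = 5; log2 fold change -0.09, SE 0.14), and 57.6% of the 50-base stretches in Oas1a transcripts also occur in it, so the split between the pair is uncertain. Oas3, the longest of the synthetases, averaged 142 ± 18.2 CPM in induced and 149 ± 26.2 CPM in control tumours (log2 fold change -0.07, SE 0.12). The OAS-like proteins Oasl1, which in mouse restrains translation of Irf7, and Oasl2 averaged 65.3 ± 15.6 CPM in induced and 72.0 ± 11.9 CPM in control tumours (log2 fold change -0.14, SE 0.16) and 209.5 ± 28.9 CPM in induced and 228 ± 45.7 CPM in control tumours (log2 fold change -0.12, SE 0.13). Without control 1, Oas3 was above 0, at 0.03, and the other 5 ran from -0.20 for Oas2 to -0.01 for Oasl2.

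The other antiviral effectors were split, with 3 fitted fold changes above 0 and 4 below. Mx1, a GTPase that traps viral nucleocapsids and whose allele in most laboratory strains, C57BL/6 included, is known to be defective, was at 30.7 to 81.9 CPM with a median of 51.8 CPM in the induced tumours, against 115, 72.2, 55.7, 53.0 and 55.7 CPM in control 1 to control 5. Control 1 was the highest tumour and induced 5 and induced 7 were the lowest. Its log2 fold change of -0.46 (SE 0.25, 95% interval -0.99 to 0.07) was the lowest of the 31, and was -0.22 without control 1. Bst2, the membrane tether tetherin, was at 400.1 to 939 CPM with a median of 746 CPM in the induced tumours, against 494, 401, 1006, 826 and 760.0 CPM in control 1 to control 5. Both groups held a low pair and a high set, and the log2 fold change was 0.05 (SE 0.26, 95% interval -0.52 to 0.61), and -0.06 without the 4 tumours that stood apart. Rsad2, the enzyme viperin that makes a chain-terminating nucleotide, averaged 486 ± 114 CPM in induced and 424 ± 52.2 CPM in control tumours (SD, n = 7 and n = 5; log2 fold change 0.20, SE 0.16). Cmpk2, a nucleotide kinase, averaged 200.1 ± 32.2 CPM in induced and 188 ± 15.2 CPM in control tumours (log2 fold change 0.09, SE 0.11) and lies beside Rsad2, Rsad2 at chr12:26442746-26456452 (minus strand) and Cmpk2 at chr12:26469204-26479837 (plus strand) in GRCm38. Both had their highest value in induced 2 and their lowest in induced 7. Mx2 averaged 26.7 ± 4.36 CPM in induced and 28.0 ± 3.48 CPM in control tumours (log2 fold change -0.07, SE 0.13), Isg20, an exonuclease, 48.3 ± 7.91 CPM in induced and 55.9 ± 8.26 CPM in control tumours (log2 fold change -0.21, SE 0.13), and Trim30a, a ubiquitin ligase family member, 94.5 ± 17.5 CPM in induced and 105 ± 42.5 CPM in control tumours (log2 fold change -0.15, SE 0.21). Without control 1 the sign changed for Trim30a, at 0.11, and for Bst2, at -0.07, while Rsad2 was at 0.16, Cmpk2 at 0.08, Isg20 at -0.18 and Mx2 at -0.08.

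The 5 remaining induced genes also had fitted fold changes below 0. Ifi27l2a, which encodes a small membrane protein, was at 64.2 to 112 CPM with a median of 93.8 CPM in the induced tumours, against 138, 74.3, 122, 141 and 112 CPM in control 1 to control 5. The induced tumours lay below the control mean in 7 of 7, control 2 was below 6 of them, and the log2 fold change was -0.35 (SE 0.16, 95% interval -0.69 to -0.01). Its unadjusted p was 0.0438 and its adjusted p 1.00. It ranged from -0.49 to -0.28 with any 1 tumour left out. Ifi44 averaged 198 ± 27.2 CPM in induced and 206 ± 21.7 CPM in control tumours (SD, n = 7 and n = 5; log2 fold change -0.05, SE 0.11), and Ifi35 146 ± 15.5 CPM in induced and 149 ± 17.7 CPM in control tumours (log2 fold change -0.03, SE 0.10). Xaf1, which opposes an inhibitor of apoptosis, averaged 106 ± 8.65 CPM in induced and 108 ± 9.85 CPM in control tumours (log2 fold change -0.02, SE 0.08), and Rtp4, a chaperone of membrane receptors, 93.4 ± 7.33 CPM in induced and 98.2 ± 10.2 CPM in control tumours (log2 fold change -0.07, SE 0.09). Without control 1, Xaf1 was above 0, at 0.03, and Ifi27l2a was at -0.29, Ifi35 at -0.07, Rtp4 at -0.01 and Ifi44 at -0.0078. The Ifi35 exons share 16.8% of their bases with Gm11626 on the opposite strand and those of Rtp4 13.9% with Gm45338 on the same strand, and the sources used here do not say whether counting used strand.

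The genes varied from tumour to tumour within both groups. The highest tumour exceeded the lowest by 1.26-fold for Xaf1 to 3.96-fold for Zbp1, with a median of 1.90-fold over the 31 and 1.98-fold over all genes tested. Control 1 was the highest tumour for 19 of 31 (61.3%, against 16.3% of all genes tested). Induced 2 was the highest for 6 of 31 (19.4%, against 6.13%), which were Isg15, Usp18, Ifit1, Oas1g, Rsad2 and Cmpk2. Induced 3 was the lowest for 12 of 31 (38.7%, against 10.8%). The median deviation of the 31 genes from their means was 0.15 in induced 4 and 0.12 in induced 2 on the log2 scale, and -0.23 in induced 5 and -0.21 in induced 7. In control 1 it was 0.40, and in the other control tumours it ran from -0.09 to 0.05.

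**Figure D3:**
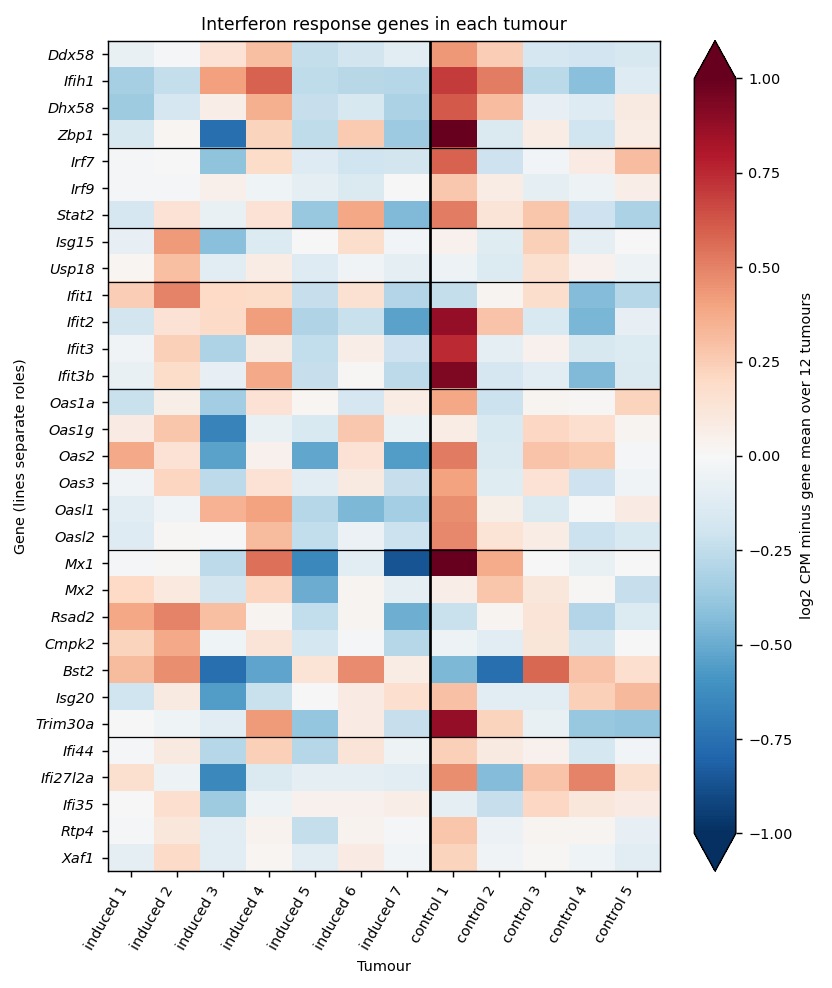
Log2 CPM of each interferon response gene minus its mean over 12 tumours, with induced 1 to 7 left of the vertical line and control 1 to 5 right of it; horizontal lines separate the roles, and colours are limited at 1 on the log2 scale. Control 1 is the reddest column, highest for 19 of 31 genes, while the Ifit1, Rsad2 and Cmpk2 rows are highest in induced 2.

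Markers of leukocytes, macrophages and fibroblasts peaked in control 1, but not every marker list followed that tumour. The leukocyte markers Ptprc, Cd53, Laptm5, Coro1a and Cd52 summed to 88.2 to 303 CPM over the induced tumours and 161 to 683 CPM over the control tumours, with the second-highest tumour, induced 4, at 303 CPM. The group medians were 195 CPM in induced and 223 CPM in control tumours. All 5 were highest in control 1, as were 8 of 8 macrophage markers, which summed to 152 to 766 CPM over the induced tumours and 208 to 1431 CPM over the control tumours. Fibroblast markers summed to 541 to 1988 CPM over the induced tumours and 659.8 to 3201 CPM over the control tumours, and 5 of 6 were highest in control 1. Markers of plasmacytoid dendritic cells, which are known for high interferon output, were low in all 12 tumours and summed to 2.83 to 8.07 CPM over the induced tumours and 3.78 to 15.6 CPM over the control tumours, with 1 of the gene and library pairs at 0. Cox6a2, 1 of the 6 genes in this sum, was at 4.09 CPM in induced 4 and 7.16 CPM in control 4. These tumours also held the highest skeletal muscle sums, and the part of muscle in these values was not tested. T cell markers summed to 2.27 to 16.1 CPM over the induced tumours and 3.92 to 40.1 CPM over the control tumours, with 11 pairs at 0. Natural killer cell markers summed to 3.54 to 11.9 CPM over the induced tumours and 4.34 to 14.6 CPM over the control tumours and B cell markers to 3.81 to 13.3 CPM over the induced tumours and 5.21 to 39.6 CPM over the control tumours. In control 1, control 4 and control 5 the B cell sum lay above every induced tumour, at 39.6, 39.0 and 33.1 CPM. Control 2 and control 3 were at 5.21 and 6.54 CPM. Neutrophil markers were highest in control 2 and summed to 11.4 to 27.7 CPM over the induced tumours and 13.1 to 122 CPM over the control tumours. The neutrophil medians were 15.5 CPM in induced and 36.9 CPM in control tumours, while the macrophage medians were 291 and 284 CPM. An unadjusted p under 0.05 by edgeR was reached by 4 of 5 neutrophil, 2 of 5 B cell and 0 of 8 macrophage markers tested (2.13% of all genes). Of these markers 0 were called. Skeletal muscle markers were lowest in control 1 and summed to 11.2 to 325 CPM over the induced tumours and 6.02 to 347 CPM over the control tumours. The part of these cells in the interferon gene values was not tested.

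**Figure D4:**
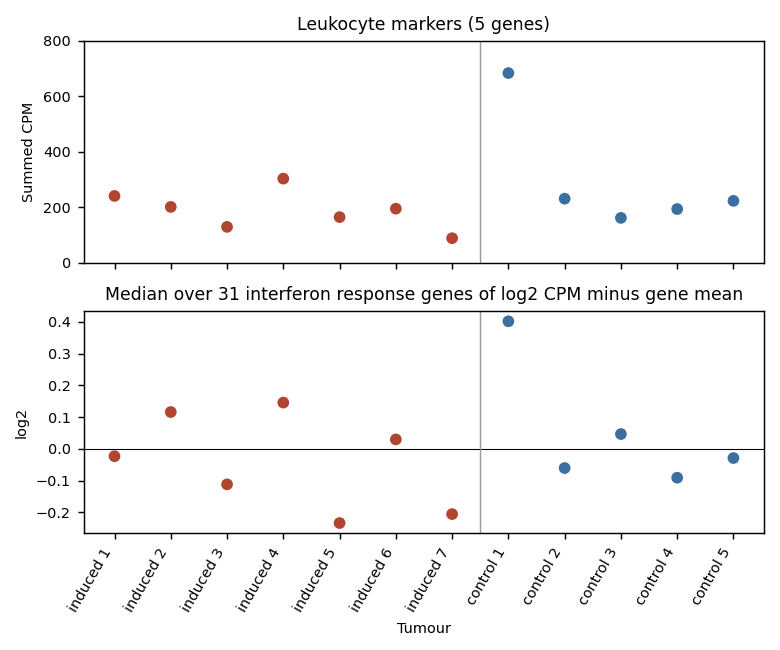
Summed CPM of 5 leukocyte markers (upper panel) and the median over 31 interferon response genes of log2 CPM minus the gene mean (lower panel) in each tumour, with induced tumours left of the grey line and control tumours right of it. Control 1 is the highest point of both panels, at 683 CPM and 0.40.

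Within the list, genes took opposite sides in the 4 tumours that stood apart. Ddx58 was at 151 and 168 CPM in induced 3 and induced 4 and 185 and 162 CPM in control 1 and control 2, against 116 to 135 CPM in the other 5 induced and 119 to 122 CPM in the other 3 control tumours. Ifih1 was at 131 and 148 CPM in induced 3 and induced 4 and 160.3 and 141 CPM in control 1 and control 2, against 78.5 to 83.8 CPM in the other 5 induced and 73.9 to 90.4 CPM in the other 3 control tumours. Ifit2 also lay higher in these 4 than in any other, at 184 and 215 CPM in induced 3 and induced 4 and 296 and 196 CPM in control 1 and control 2. Bst2 went the other way, at 400.1 and 468 CPM in induced 3 and induced 4 and 494 and 401 CPM in control 1 and control 2, against 711 to 939 CPM in the other 5 induced and 760.0 to 1006 CPM in the other 3 control tumours, and Ifi35 did so too. In all, 3 of 31 genes were above the other 8 tumours in all 4, where 12% of all genes were, and 2 of 31 were below, where 15.1% were, so neither share is above the background. The 4 tumours were set apart in an earlier description of these same data, and no test was made between them and the others.

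**Figure D5:**
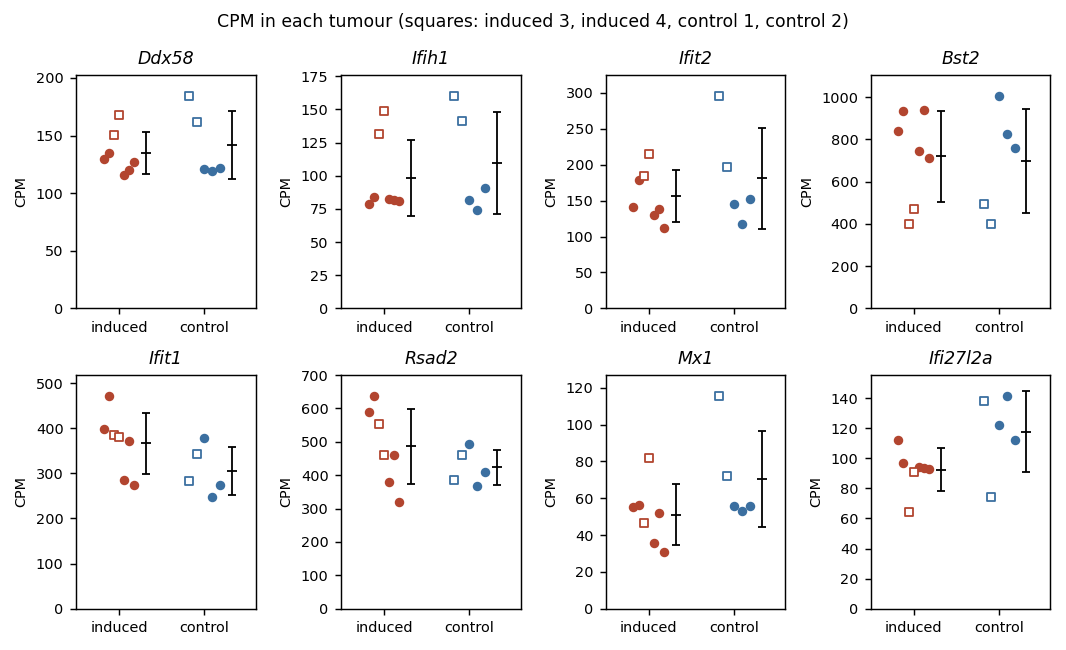
CPM in each tumour for 8 interferon response genes, with induced tumours left and control tumours right in each panel, axes starting at 0, and the mean ± SD beside each group; open squares are induced 3, induced 4, control 1 and control 2. The squares are the 4 highest points for Ddx58, Ifih1 and Ifit2 and the 4 lowest for Bst2.

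No other gene of the pathway passed the test either. Of 83 tested in 5 lists, 0 were called by edgeR. An unadjusted p under 0.05 by the same test was reached by 8 of the 83, a larger share than the 2.13% of all genes tested. In induced tumours 12 had higher and 71 lower fitted values (85.5% lower, against 50.2% of all genes tested), with a median log2 fold change of -0.18. Control 1 was the highest tumour for 58 of the 83, a larger share than the 16.3% of all genes tested. Without control 1, 32 were higher and 51 lower with a median of -0.03, and without the 4 tumours that stood apart 39 were higher and 44 lower. The interferons themselves were near the floor. Ifnb1, interferon beta, had 503 counts in all 12 libraries together and averaged 1.75 ± 0.897 CPM in induced and 2.14 ± 0.788 CPM in control tumours (SD, n = 7 and n = 5), Ifna4, an interferon alpha, 0.616 ± 0.439 CPM in induced and 0.712 ± 0.254 CPM in control tumours, and Ifng, interferon gamma, 0.745 ± 0.677 CPM in induced and 1.15 ± 1.31 CPM in control tumours. All 3 fitted fold changes were below 0, with Ifng at -0.65 (SE 0.78) and Ifnb1 at -0.29 (SE 0.39). Without control 1 the sign of Ifng changed, to 0.32, while Ifnb1 was at -0.46 and Ifna4 at -0.36. Ifna2 and Ifnz had 17 and 23 counts in all and were not tested, and the other interferon genes listed are not analysed here.

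Receptors and proximal kinases gave 1 higher and 8 lower of 9 tested, and 5 higher and 4 lower without control 1. Ifnar1 averaged 49.7 ± 9.38 CPM in induced and 56.5 ± 8.25 CPM in control tumours (SD, n = 7 and n = 5; log2 fold change -0.19, SE 0.14) and Tyk2 25.3 ± 4.08 CPM in induced and 30.6 ± 5.58 CPM in control tumours (log2 fold change -0.28, SE 0.13), with -0.12 and -0.19 without control 1. Upstream adaptors and kinases gave 3 higher and 13 lower of 16, and 8 higher and 8 lower without control 1. Tmem173, the adaptor STING that responds to cytoplasmic DNA, averaged 37.4 ± 2.82 CPM in induced and 46.6 ± 6.86 CPM in control tumours (log2 fold change -0.32, SE 0.10), with the smallest unadjusted p of these lists at 0.00637, and Ikbke, a kinase of interferon regulatory factors, 26.4 ± 6.49 CPM in induced and 37.0 ± 9.43 CPM in control tumours (log2 fold change -0.49, SE 0.19). Without control 1 these log2 fold changes were -0.23 for Tmem173 and -0.40 for Ikbke. Without the 4 tumours that stood apart they were -0.22 and -0.33. Each induced value of Tmem173 (32.4 to 41.0 CPM) lay below each control value (41.3 to 58.6 CPM). The groups did not overlap for 0.0592% of all genes tested, and this trait of Tmem173 was picked out after its values were seen. Negative regulators gave 3 higher and 6 lower of 9, with Socs3, a feedback inhibitor of cytokine receptors, at 41.2 ± 5.45 CPM in induced and 57.1 ± 19.5 CPM in control tumours (log2 fold change -0.47, SE 0.18) and Ptpn6, a phosphatase of leukocytes, at 22.8 ± 9.02 CPM in induced and 42.7 ± 29.9 CPM in control tumours (log2 fold change -0.91, SE 0.36). Without control 1 the list gave 4 higher and 5 lower, with Socs3 at -0.29 and Ptpn6 at -0.38. Of 46 other interferon-induced genes, 5 were higher and 41 lower, and 36 were highest in control 1, where 16.3% of all genes tested were. Among them Plac8 averaged 26.3 ± 15.5 CPM in induced and 61.7 ± 37.6 CPM in control tumours (log2 fold change -1.23, SE 0.40) and Phf11b 26.1 ± 4.04 CPM in induced and 38.1 ± 14.3 CPM in control tumours (log2 fold change -0.55, SE 0.19). Without control 1, 14 were higher and 32 lower, with Plac8 at -0.81 and Phf11b at -0.30. The adjusted p of each of these genes was 1.00 by edgeR's quasi-likelihood test.

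In the authors' deposited table, the log2 fold change was also below 0 for 26 of the 31 genes, from -0.47 to 0.26, and the smallest adjusted p among them was 0.994. The authors' deposited table and the edgeR fit rest on the same counts, so the shared signs, 31 of 31, are no separate evidence.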

How the data were processed

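RNA was extracted from 12 tumours, and libraries were made with a SMARTER mRNA-Seq kit from 1.3 ug of total RNA, per the labels' protocols. The genome build was GRCm38 (mm10), per the submitters' processing notes. The aligner, counter, gene annotation and strand setting were not given in the sources used here. Since the labels' growth and treatment text is about fat cell differentiation in another cell line, groups were taken from the titles. The authors deposited raw counts per gene, rlog values on the log2 scale, which were not tested, and their own log2 fold changes, signed fold changes and p-values, per the file headers. Columns were matched to samples by library name.

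Counts were analysed in edgeR 4.0.16 (R 4.3.3). Of 25116 genes, 15199 passed filterByExpr by group (minimum count 10). TMM factors, the two-sided quasi-likelihood F test in its robust form and Benjamini-Hochberg adjustment over all genes tested were used, with a threshold of 0.05. Standard errors and 95% intervals come from the same fit. CPM are counts per 1000000 counts after TMM scaling. Log2 CPM used a prior count of 2. The fit was also run on simulated counts, drawn independently and without a split like that of the 4 tumours that stood apart. That run does not measure error rates or power in these tumours. No 2 libraries of a group agreed within sampling noise (chi-square per gene 13.3 to 214). Exonic lengths, positions and shared 50-base stretches came from GENCODE M21 (GRCm38).

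The gene list, the pathway and marker lists and the rules were chosen with earlier results of these data known, and the limits of 2-fold and 1.5-fold, the counts by highest tumour and the promoters printed were chosen after values were seen. All 31 genes are named. Values by tumour are given for the gene with the highest level per length and the one with the smallest p in each role, and for the lowest and highest fold change. In each pathway list the 2 genes with the smallest p are named, and other genes named there were chosen after their values were seen. Alternatives were DESeq2 1.42.0, limma-voom (limma 3.58.1) with quality weights, RLE size factors, a fit without robust estimation, other filters, a replicate block, each library left out, and 4 libraries left out or modelled.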

Additional observations from a re-analysis of the deposited data

Results flagged for a closer look

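A tumour far from the others of its group was looked for in 62 groups of values (31 genes in 7 induced and 5 control tumours), with the gap to the nearest tumour divided by the range of log2 CPM and limits of 0.568 for 7 and 0.71 for 5. Chance passes about 1 in 20 groups, and 5 passed. In the induced group Ifi27l2a was low in induced 3, at 64.2 CPM against 91.0 to 112 CPM in the other induced tumours. Ifi35 was low in the same tumour, at 115 CPM against 141 to 164 CPM. In the control group 3 genes were high in control 1. Zbp1 was at 226 CPM against 83.6 to 101 CPM in the other control tumours, Ifit3 at 228 CPM against 122 to 141 CPM, and Ifit3b at 55.5 CPM against 21.3 to 27.0 CPM. Control 1 also held the highest leukocyte sum, and its part in these values was not tested.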

How the results depend on the processing

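No alternative called any gene, of the 31 or of all genes. With 1 tumour left out, the median log2 fold change ran from -0.18 to -0.013, the number of genes with lower values in induced tumours from 20 to 28, and the number with an interval within a 2-fold change from 29 to 31. Leaving out control 1 gave the values nearest to 0. Limma-voom with quality weights gave 18 of 31 lower, with a median of -0.023. Genes at an unadjusted p under 0.05 numbered 324 of 15199 by edgeR, 607 of 24895 by DESeq2, 996 of 15199 by limma-voom and 621 of 25116 with no filter. They numbered 108 of 15199 with the replicate block, 567 of 15351 without the 4 tumours that stood apart and 490 of 15199 with a term for these tumours. Single tumours left out gave 198 (control 1) to 745 (induced 4), with 210 without induced 2 and 670 without control 3. Fold changes of the other sign, as log2 values, were Ddx58 0.015, Ifit3 0.024, Ifit3b 0.085, Isg15 0.051, Oas3 0.016, Stat2 0.025, Trim30a 0.12, Xaf1 0.047 with limma-voom, Bst2 -0.058, Ddx58 0.044, Ifi44 0.022, Ifit2 0.0097, Ifit3 0.050, Ifit3b 0.15, Isg15 0.046, Oas3 0.012, Trim30a 0.16, Usp18 -0.042, Xaf1 0.047 without the 4 tumours that stood apart, and Bst2 -0.048 with a term for them. With single tumours left out, signs changed within these ranges: Bst2 -0.11 to 0.20, Ddx58 -0.14 to 0.035, Ifi35 -0.097 to 0.021, Ifih1 -0.29 to 0.015, Ifit2 -0.34 to 0.035, Ifit3 -0.24 to 0.036, Ifit3b -0.22 to 0.21, Isg15 -0.090 to 0.051, Oas3 -0.14 to 0.025, Trim30a -0.27 to 0.11, Usp18 -0.040 to 0.046, Xaf1 -0.054 to 0.031. The cause was not tested. The replicate number as a block gave 0 calls, a median of -0.077 and another sign for Bst2 -0.037, Ifit3b 0.020. Deviations of same-numbered tumours correlated from -0.53 to 0.21 and 1 of 5 matched its own number best, which gave no sign of pairing. A weaker factor shared by same-numbered tumours could not be seen beside the split of the 4 tumours that stood apart. Pairing is therefore not excluded. Depth limits the interferon genes themselves, at 503 counts or fewer over 12 libraries, while each of the 31 had at least 413 counts in each library.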

Other observations

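Genes of the response did not keep 1 ratio to each other across the tumours. The CPM of Ifit1 was divided by that of Ifit2, which lies in the same gene cluster. The ratio was 1.77 to 2.81 in the 7 induced tumours, against 0.958 in control 1 and 1.74 to 2.61 in the other control tumours. Rsad2 divided by Mx1 was 5.61 to 11.9 in the induced tumours, with the lowest value in induced 4, against 3.35 in control 1 and 6.38 to 8.85 in the other control tumours. Both pairs were chosen after their values were seen, and no test was made.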
